A study of Mus musculus with 12 samples.

Results

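The genes described here are the cytosolic and mitochondrial chaperones and their helpers: 64 of the 7318 genes that the deposited table lists. They were found by gene symbol alone, as the Hsp70 (Hspa), small heat shock (Hspb), Hsp60 (Hspd), Hsp10 (Hspe), Hsp110 (Hsph) and Hsp90 (Hsp90a) families, the J proteins (Dnaja, Dnajb, Dnajc), the BAG proteins and the subunits of the TRiC chaperonin (Cct and Tcp1), together with St13, Stip1, Hsf1, Trap1 and Fkbp4. The chaperones of the endoplasmic reticulum Hspa5, Dnajb11 and Dnajc3 are listed in the table but were left out by that rule. A few members, such as Hspa13, Dnajc1 and Dnajc10, are known residents of the endoplasmic reticulum, so the set is cytosolic and mitochondrial in the main rather than in full. The rule itself uses no measured value, but it was chosen with earlier results of these data known.

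Female FVB/N mice, 4 weeks of age, gave mammary glands 3 to 5. All of them carried the transgenes MMTV-Wnt1 and MMTV-iFgfr1. MMTV is a viral promoter active in mammary epithelium. iFgfr1 encodes an FGF receptor 1 that the dimerizing compound AP20187 switches on, and the same promoter drives Wnt1 in both groups. Mice received vehicle or AP20187 by intraperitoneal injection for 6 h, and no group received the compound without the receptor, so an action of AP20187 itself cannot be told apart from receptor signalling. Digestion took 2 h at 37 °C in collagenase A (1 mg/ml) with cycloheximide (100 µg/ml), which halts elongating ribosomes, and short spins enriched the cells without a sort. Poly(A) RNA and ribosome footprints, the mRNA fragments that ribosomes protect from nuclease, were sequenced from the cell pellets. The design thus has 4 groups of 3 libraries, by assay and by treatment. Whether 1 mouse or a pool stands behind a library is not in the labels. The p-values therefore rest on differences among libraries of a group, and these can be technical.

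Many chaperones bind proteins that are not folded and let them go in cycles driven by ATP. In the cytosol, J proteins hand clients to Hsp70 and speed up its ATP use. Hsp110 and BAG proteins make Hsp70 release its nucleotide, St13 binds Hsp70, and Stip1 passes clients on to Hsp90. The TRiC ring folds actin and tubulin, and in mitochondria the same work falls to Hspa9, Trap1 and the Hspd1 and Hspe1 chaperonin. Under protein-damaging stress the factor Hsf1 binds heat shock elements, repeats of the bases GAA in alternating orientation, and raises a subset of these genes, with Hspa1a and Hspa1b as the classic examples.

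RNA libraries held 94513818 to 251874393 counts over the listed genes and footprint libraries 1772969 to 11018709. A level of 3 counts thus corresponds to at most 0.0322 CPM (counts scaled to library size with TMM factors) in RNA and to as much as 1.63 CPM in footprints, and footprint values of low members are correspondingly coarse. The members took 1.65, 1.74 and 1.7999% of counts in the vehicle RNA libraries 1, 2 and 3, and 1.497, 2.83 and 1.65% in the AP20187 RNA libraries 1, 2 and 3. RNA library AP20187 2 therefore stands apart in the members' share (95% Wilson interval 2.827 to 2.833%, for counting error only), and the results below that it bears on most are given with and without it. In footprints the shares were 1.45, 1.65 and 1.64% with vehicle and 1.27, 1.73 and 1.39% with AP20187. Marker genes of other cell types also differed between the groups. In RNA, 7 of 8 listed fibroblast markers fell (summed level 3834 to 6639 CPM with vehicle, 1466 to 1996 with AP20187) and of 9 luminal markers 6 rose and 2 fell (Krt19 and Muc1; summed level 4181 to 5208 CPM against 7022 to 9381). Of all genes, 12.4% rose and 13.9% fell. Counts of the transgenes' own gene symbols also differed: Fgfr1 RNA read 340, 366 and 268 CPM with vehicle and 756, 1100 and 575 CPM with AP20187, and Wnt1 RNA 30.6, 45.0 and 11.2 CPM against 184, 313 and 165 CPM. Both rose (log2 fold changes 1.32 ± 0.25 and 2.93 ± 0.51, edgeR adjusted p = 0.00987 and 0.00972), both were the highest in RNA AP20187 2, and transgene and native transcripts cannot be told apart in these counts. The part of such shifts in the results below was not tested.

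The promoters of the genes that stood out most are shown first, because Hspa1a and Hspa1b share nearly all of their sequence and because Hsph1 and Hspd1 carry heat shock element letters. Each line gives the 250 bases before the gene start from RefSeq (build GRCm38.p6), 5′ to 3′ on the gene's own strand, with the matches to GAANNTTC or TTCNNGAA in capitals.
Hspa1a, chr17:34972157-34972406, minus strand: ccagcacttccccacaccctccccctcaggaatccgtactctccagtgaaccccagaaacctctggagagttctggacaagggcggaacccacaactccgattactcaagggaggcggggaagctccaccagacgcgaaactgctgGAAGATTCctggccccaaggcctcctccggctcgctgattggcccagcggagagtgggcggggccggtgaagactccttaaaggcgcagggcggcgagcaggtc
Hspa1b, chr17:34959239-34959488, minus strand: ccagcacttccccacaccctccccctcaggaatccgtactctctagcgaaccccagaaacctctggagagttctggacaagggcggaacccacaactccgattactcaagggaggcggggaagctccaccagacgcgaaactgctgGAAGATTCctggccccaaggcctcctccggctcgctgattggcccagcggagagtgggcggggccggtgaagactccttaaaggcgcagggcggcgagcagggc
Hsph1, chr5:149636316-149636565, minus strand: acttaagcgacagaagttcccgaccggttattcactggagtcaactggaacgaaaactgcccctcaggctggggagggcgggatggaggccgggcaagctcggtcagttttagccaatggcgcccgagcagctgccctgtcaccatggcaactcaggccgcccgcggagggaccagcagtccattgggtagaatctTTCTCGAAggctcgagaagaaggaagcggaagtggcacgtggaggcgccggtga
Hspd1, chr1:55087933-55088182, minus strand: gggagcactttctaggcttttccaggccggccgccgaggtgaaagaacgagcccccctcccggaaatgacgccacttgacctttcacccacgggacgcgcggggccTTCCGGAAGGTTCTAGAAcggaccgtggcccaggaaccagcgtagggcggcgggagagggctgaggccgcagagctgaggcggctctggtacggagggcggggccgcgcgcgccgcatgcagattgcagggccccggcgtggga

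The Hspa1a and Hspa1b stretches differ at 3 of 250 bases, and both hold their match 104 bases before the start. In Hspd1 the match is longer, with 2 overlapping copies of the 3-unit element (GAANNTTC followed by NNGAA, or TTCNNGAA followed by NNTTC, both strands searched) that begin 144 and 139 bases before the start. The neighbouring gene Hspe1 starts on the opposite strand and its 300-base window shares 285 bases with that of Hspd1, so the same letters lie before both genes. In Hsph1 a 3-unit match, TTCTGGAAAGTTC, begins 15 bases after the start. Over windows of 300 bases (250 before and 50 after the start), which the table used here gives for 52 of the 64 members, the 3-unit element was found in 4 members (7.69%: Dnajb6, Hspd1, Hspe1 and Hsph1), against 179 of 27025 genes (0.662%). The shorter 2-unit form, added once the values were known, was found in 17 members (32.7%) against 17.0% of all genes. A match describes letters in a window and is no evidence of binding.

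**Figure D1:**
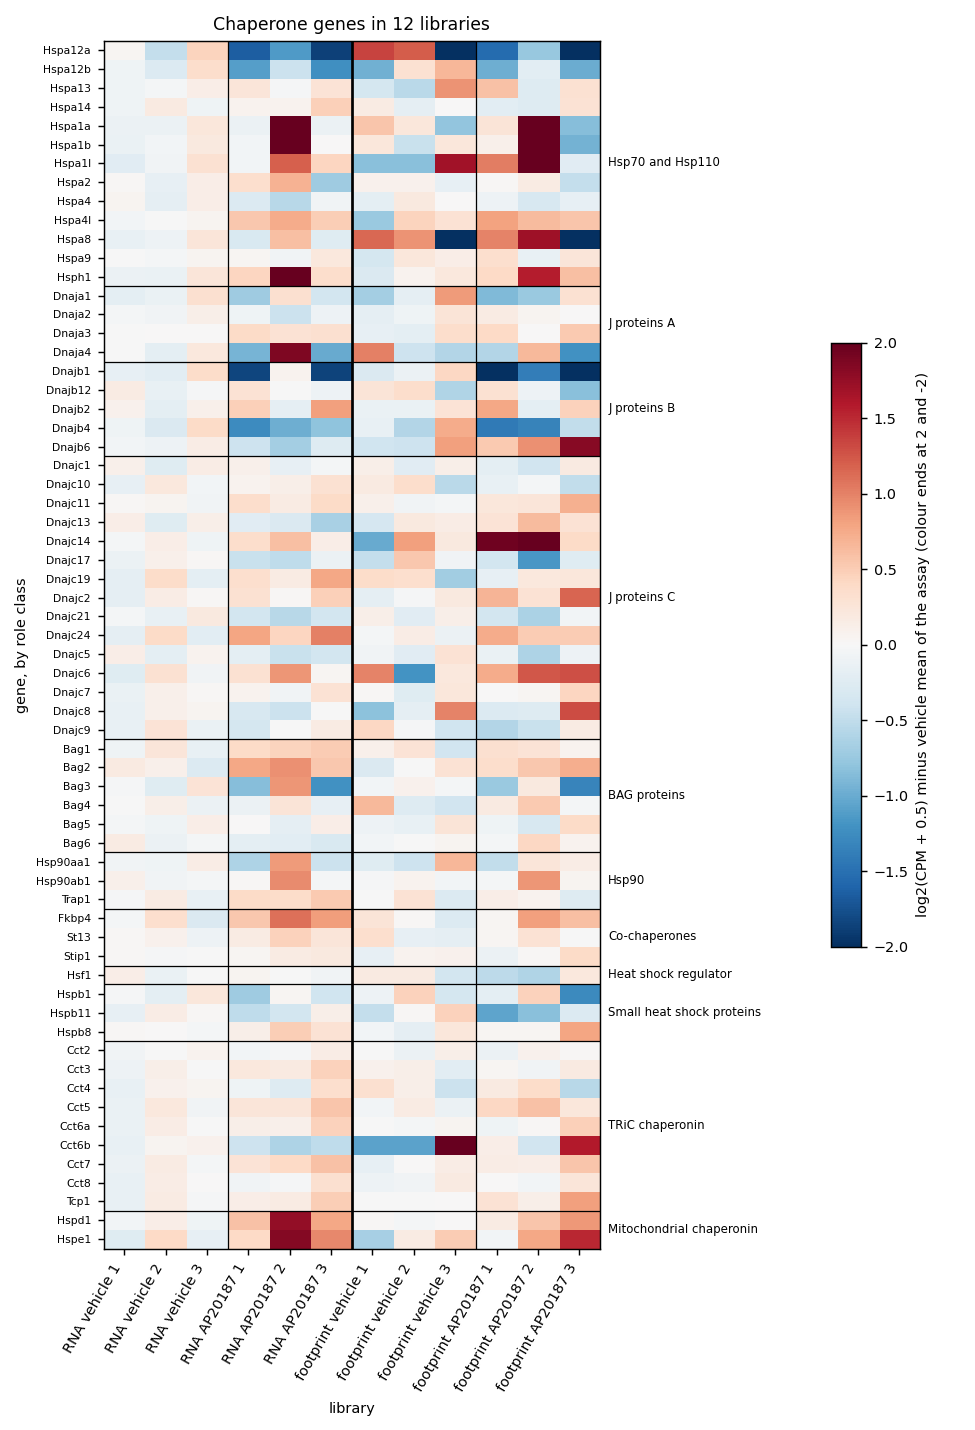
Levels of the 64 chaperone genes (rows, by role) in the 12 libraries (columns), as log2(CPM + 0.5) minus the vehicle mean of the same assay. Dark red cells for Hspa1a, Hspa1b, Hsph1, Dnaja4, Hspd1 and Hspe1 stand in the RNA AP20187 2 column, and the blue cells of Dnajb1 stand in RNA AP20187 1 and 3 and in all 3 AP20187 footprint columns.

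The RNA comparison asks which chaperone transcripts differ after 6 h of receptor activation. With AP20187, 6 of the 64 members rose and 2 fell at an adjusted p under 0.05 in edgeR's quasi-likelihood test. The called share, 12.5%, lies below the 26.2% called over all genes tested (12.4% higher and 13.9% lower), and the members' median log2 fold change was 0.15 against 0.01 over all genes. The members that rose were Hspe1, Hspd1, Fkbp4, Bag2, Hspa4l and Trap1, and those that fell were Hspa12a and Dnajb4. Of the 64 members, 16 had all 3 AP20187 libraries above all 3 vehicle libraries and 10 had all below, against 21.9% and 23.1% of all genes. The count of rises differed when single libraries were left out, and so did the share called over all genes. It was 9 without RNA vehicle 2 (27.9% of all genes called) and 3 without RNA AP20187 1 (10.6%). When RNA vehicle 1 was left out the count of rises was 0 in edgeR (6 higher and 5 lower at an unadjusted p under 0.05). The share called over all genes dropped to 10.1%. Leaving out RNA vehicle 3 also gave 0 (6 higher and 2 lower), with 7.33% of all genes called. Falls numbered 1 in that fit and 6 without RNA AP20187 2 (30.6% of all genes called). Dnajb4 was the member that fell in each of the 6 fits with 1 RNA library left out.

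Both genes of the mitochondrial chaperonin rose in RNA. Their annotated transcripts start head to head and overlap slightly (GENCODE M21, GRCm38: Hspd1 chr1:55077835-55088243, minus strand, and Hspe1 chr1:55088132-55091307, plus strand), and whether the counting used strand is not given. Hspd1, the Hsp60 barrel, read 266, 306 and 263 CPM with vehicle and 418, 945 and 475 CPM with AP20187. All AP20187 libraries lie above all vehicle libraries, and library 2 is the highest of them. The log2 fold change was 1.14 ± 0.29 (SE, n = 3 libraries a group; edgeR adjusted p = 0.0255), and without RNA AP20187 2 it was 0.69 ± 0.15 (adjusted p = 0.0130). Hspe1, the Hsp10 lid of that barrel, read 46.5, 72.9 and 49.0 CPM with vehicle and 72.5, 197 and 108 CPM with AP20187. Here the groups overlap, since AP20187 1 lies just under vehicle 2. Its log2 fold change of 1.16 ± 0.35 (edgeR adjusted p = 0.0405) became 0.69 ± 0.25 without RNA AP20187 2, where it no longer passed (adjusted p = 0.0650).

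Trap1, the Hsp90 of mitochondria, read 131, 149 and 119 CPM with vehicle and 173, 172 and 190.4 CPM with AP20187. Its 3 AP20187 libraries lie close together and above vehicle. The log2 fold change was 0.43 ± 0.13 (edgeR adjusted p = 0.0450), and 0.47 ± 0.15 without RNA AP20187 2 (adjusted p = 0.0445). The call also held without RNA vehicle 2, but not without RNA vehicle 1, vehicle 3, AP20187 1 or AP20187 3. Where it was lost, 10.1, 7.33, 10.6 and 21.4% of all genes were called, in that order. Of the 7 listed members that act in mitochondria, 3 rose in RNA (Hspd1, Hspe1 and Trap1), 0 fell and 4 did not pass, beside 12.4% of all genes that rose. Without RNA AP20187 2 the rises were Hspd1 and Trap1. Dnaja3, a mitochondrial J protein, had a log2 fold change of 0.33 (adjusted p = 0.0667), and Dnajc11 of 0.30 (0.104). Hspa9, the mitochondrial Hsp70, was at 681, 667 and 709 CPM with vehicle and 703, 651 and 794 CPM with AP20187 (log2 fold change 0.06), and its groups overlap. The list's median of 0.43 stands beside a median of 0.01 over all genes.

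Fkbp4, a peptidyl-prolyl isomerase that joins Hsp90 on steroid receptors, read 145, 186 and 121 CPM in RNA with vehicle and 214, 318 and 266 CPM with AP20187. The groups do not overlap, and the log2 fold change was 0.82 ± 0.20 (edgeR adjusted p = 0.0229). The other co-chaperones of that relay moved less: St13 and Stip1 had log2 fold changes of 0.29 and 0.14, and neither passed. Bag2, an Hsp70 release factor that also restrains the ubiquitin ligase Stub1, read 26.1, 24.7 and 18.8 CPM with vehicle and 39.4, 43.8 and 33.8 CPM with AP20187, a log2 fold change of 0.75 ± 0.18 (adjusted p = 0.0227). Hspa4l, an Hsp110-type exchange factor, read 27.96, 28.7 and 30.2 CPM with vehicle and 42.3, 48.7 and 41.0 CPM with AP20187, a log2 fold change of 0.60 ± 0.14 (adjusted p = 0.0200). For these 3 genes every AP20187 library exceeded every vehicle library, and the calls also held without RNA AP20187 2, at 0.69, 0.67 and 0.54.

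Dnajb4 (chr3:152178511-152210302, minus strand), a J protein of the cytosol, fell in RNA. It read 380, 327 and 521 CPM with vehicle and 168, 204 and 229 CPM with AP20187, so that the groups are well separated. The log2 fold change was -1.03 ± 0.20 (edgeR adjusted p = 0.0116), and it was the same size, -1.03, without RNA AP20187 2. Hspa12a, a distant relative of Hsp70, also fell, from 8.98, 6.18 and 12.1 CPM to 2.44, 3.71 and 2.05 CPM (log2 fold change -1.73 ± 0.35, adjusted p = 0.0118). Its closest relative in the set, Hspa12b, known from endothelium, read 6.89, 6.02 and 9.58 CPM with vehicle and 3.17, 5.36 and 2.87 CPM with AP20187, and its log2 fold change of -0.98 ± 0.33 missed the threshold (adjusted p = 0.0567) until RNA AP20187 2 was left out (-1.30 ± 0.28, adjusted p = 0.0134). Beside these, all 4 listed endothelial markers fell in RNA. Their summed level went from between 531 and 717 CPM to between 286 and 327 CPM, and none of them is at 0. Markers of other cell types shifted too, and 7 of 8 for fibroblasts and 3 of 5 for adipocytes fell. Summed adipocyte markers read 263 to 502 CPM with vehicle and 48.1 to 104 CPM with AP20187. Of 10 basal and myoepithelial markers 5 fell and 1 rose, of 6 Schwann markers 4 fell and 1 rose, and of 2 macrophage markers 1 rose. In these bulk samples fewer cells of a type and less RNA per cell cannot be told apart, and the markers' part in these falls was not tested.

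RNA library AP20187 2 carried more transcript of several stress-inducible chaperones than any other RNA library. It was the highest library by at least 1.5 times for 10 of 64 members (15.6%), against 1.31% of all genes. For 0 members was another RNA library the highest, or any RNA library the lowest, by that margin, against 6.43% of all genes. With no margin, RNA AP20187 2 was the highest of the 6 for 20 members (31.2%, against 20.7% of all genes) and for 12 of the 20 listed textbook targets of Hsf1. The 10 with the margin are Hspa1a, Hspa1b, Hspa1l, Hsph1, Dnaja4, Bag3, Hsp90aa1, Hsp90ab1, Hspd1 and Hspe1. The margin was set with the values in view, so the counts are a description. Of the 8 among them with a promoter window, 3 hold the 3-unit element (Hspd1, Hspe1 and Hsph1) and 7 the 2-unit form. Over all members with a window the shares are 7.69% and 32.7%, and over all genes 0.662% and 17.0%. Dnajb6, the other member with the 3-unit element, was lowest in RNA AP20187 2, at a log2 level of -0.68 relative to the vehicle mean. The same sequence is counted more than once among the 8. The windows of Hspd1 and Hspe1 share 285 bases, and those of Hspa1a and Hspa1b differ at 4 of 300 bases. The genes were picked for their values and the 2-unit form was added afterwards, so these counts are a description too. Over the 20 listed textbook targets of Hsf1, the median log2 level relative to the vehicle mean was -0.01 in RNA AP20187 1, 0.67 in AP20187 2 and 0.08 in AP20187 3. A planned strict form of the list holds 15 genes and leaves out Cct2, Cct5, Tcp1, Hsp90ab1 and Fkbp4. Its medians were -0.12, 0.74 and -0.12 in the same libraries. Hsf1 itself was level, at 79.9, 66.4 and 72.7 CPM with vehicle and 75.4, 72.7 and 69.4 CPM with AP20187.

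Hspa1a, the stress-inducible Hsp70, read 101.33, 101.58 and 128 CPM in RNA with vehicle and 100.83, 2030 and 100.88 CPM with AP20187. Hspa1b, its near-identical copy, read 127, 134 and 161 CPM with vehicle and 134, 2433 and 141 CPM with AP20187. In both, AP20187 1 and 3 sit at the vehicle level and AP20187 2 stands far above. Of the 28-base windows of the Hspa1a coding sequence, 89.5% also occur in Hspa1b, and how the authors' counting treated shared reads is not known, so their sum is the safer value. Summed, they read 228, 236 and 289 CPM with vehicle and 235, 4463 and 242 CPM with AP20187. The fitted log2 fold changes, 2.75 ± 1.14 for Hspa1a and 2.68 ± 1.09 for Hspa1b, did not pass (edgeR adjusted p = 0.111 and 0.107). Without RNA AP20187 2 they were -0.12 ± 0.15 and -0.02 ± 0.15.

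Hsph1, the Hsp110 that exchanges the nucleotide of Hsp70, read 127, 127 and 165 CPM in RNA with vehicle and 186, 1137 and 177 CPM with AP20187. All AP20187 libraries exceed vehicle, but 1 of them by far the most, and the log2 fold change of 1.84 ± 0.71 did not pass (edgeR adjusted p = 0.0926). Without RNA AP20187 2 it was 0.39 ± 0.16 (adjusted p = 0.0924). Among the Hsp90 genes, Hsp90aa1, the inducible cytosolic form, read 939, 930.1 and 1090.0 CPM with vehicle and 642, 1771 and 729 CPM with AP20187. Hsp90ab1, the constitutive form, read 2325, 2047 and 2108 CPM with vehicle and 2202, 4172 and 2100.5 CPM with AP20187. Neither gene passed, with log2 fold changes of 0.09 and 0.39. Without RNA AP20187 2 these were -0.51 ± 0.17 for Hsp90aa1 (edgeR adjusted p = 0.0525) and 0.01 ± 0.17 for Hsp90ab1.

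**Figure D2:**
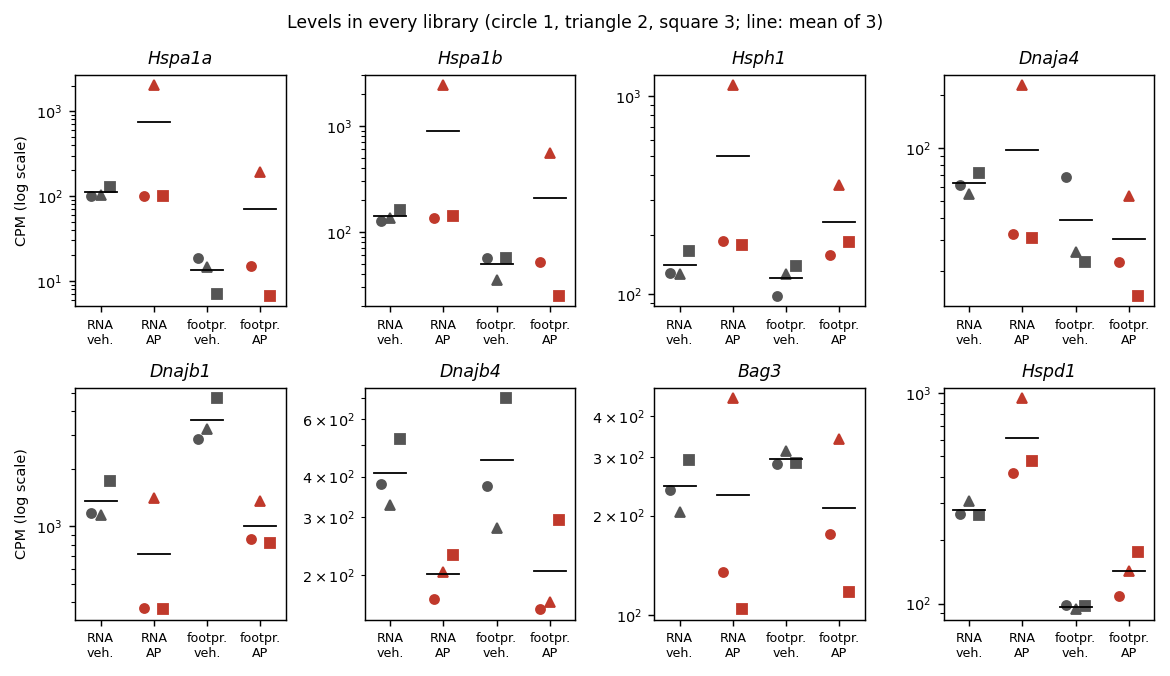
CPM on a log axis in every library for 8 chaperone genes, vehicle in grey and AP20187 in red, with circles, triangles and squares for libraries 1, 2 and 3 and a line at the mean of 3. The AP20187 triangle (library 2) is the highest RNA point for Hspa1a, Hspa1b, Hsph1, Dnaja4, Bag3 and Hspd1, while for Dnajb1 it is level with vehicle and the circle and square lie below.

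For another set of genes, the AP20187 RNA libraries 1 and 3 lay below all vehicle libraries while library 2 did not. Dnajb1, the main stress-inducible J protein of cytosolic Hsp70, read 1178, 1151 and 1719 CPM with vehicle and 373, 1396 and 368 CPM with AP20187. Bag3, which couples Hsp70 and small heat shock proteins to autophagy, read 238, 205 and 295 CPM with vehicle and 135, 451 and 104 CPM with AP20187. Dnaja4, a J protein of the DNAJA type, read 61.9, 54.6 and 72.0 CPM with vehicle and 32.5, 228 and 30.8 CPM with AP20187. None of these passed with all 6 RNA libraries, where the log2 fold changes were -0.92 ± 0.52, -0.10 ± 0.52 and 0.63 ± 0.73. In the fit without RNA AP20187 2 all 3 fell, at -1.85 ± 0.23 for Dnajb1 (edgeR adjusted p = 0.00204), -1.03 ± 0.20 for Bag3 (0.00856) and -0.98 ± 0.16 for Dnaja4 (0.00506). These 3 genes were picked for this pattern, and the library left out is their highest AP20187 library. Their p-values in that fit are therefore a description and no independent test. RNA AP20187 1 and 3 both lay below all vehicle libraries for 18 members (28.1%, against 30.7% of all genes) and both above for 19 (29.7%, against 29.1%). Members with AP20187 1 and 3 below and AP20187 2 above all vehicle RNA libraries numbered 5 (7.81%: Bag3, Dnaja4, Hsp90aa1, Hspa1a and Hspa8), against 2.64% of all genes. Hspa1a is in this count by a very small margin. Its log2 levels relative to the vehicle mean were -0.1201 and -0.1195 in AP20187 1 and 3, against -0.113 in RNA vehicle 1. Hspa8, the constitutive Hsp70, showed the pattern in small steps, at 1538, 1587 and 2020 CPM with vehicle and 1384, 2594 and 1438 CPM with AP20187.

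Immediate early genes, a common sign of tissue handling, were not the highest in RNA AP20187 2. Their summed RNA level was 27765, 21848 and 31567 CPM with vehicle and 19643, 23628 and 18161 CPM with AP20187, so AP20187 2 was the highest of its group but within the vehicle range. Of the 5 such genes in the table, 0 passed in RNA and 0 in footprints. Summed luminal markers in RNA AP20187 2 (7022 CPM) lay between the vehicle libraries and the other AP20187 libraries (8553 and 9381 CPM). The part of sample handling or cell makeup in the level of library 2 was not tested.

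Without RNA AP20187 2, 7 members rose and 6 fell, a called share to be read against 30.6% of all genes (14.5% higher and 16.1% lower). That library stood apart in the members themselves, so the calls made without it are a description. Bag2, Fkbp4, Hspa4l, Hspd1 and Trap1 rose in both fits. Dnajb2, a ubiquitin-binding J protein, at 0.67 ± 0.16 (edgeR adjusted p = 0.0203), and Dnajc24, which takes part in making diphthamide on elongation factor 2, at 0.92 ± 0.24 (0.0257), passed in the smaller fit only. Dnajb4 and Hspa12a fell in both fits, and Bag3, Dnaja4, Dnajb1 and Hspa12b in the smaller fit only. In that fit 3 of the 20 Hsf1 targets rose and 3 fell, with a median of 0.03. In the fit of all 6 libraries 4 rose and 1 fell, with a median of 0.29. Of the 15 in the strict form of the list, 2 rose and 3 fell in the smaller fit, with a median of -0.12. With all 6 libraries 3 of these rose and 1 fell, with a median of 0.14, where 26.2% of all genes were called.

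**Figure D3:**
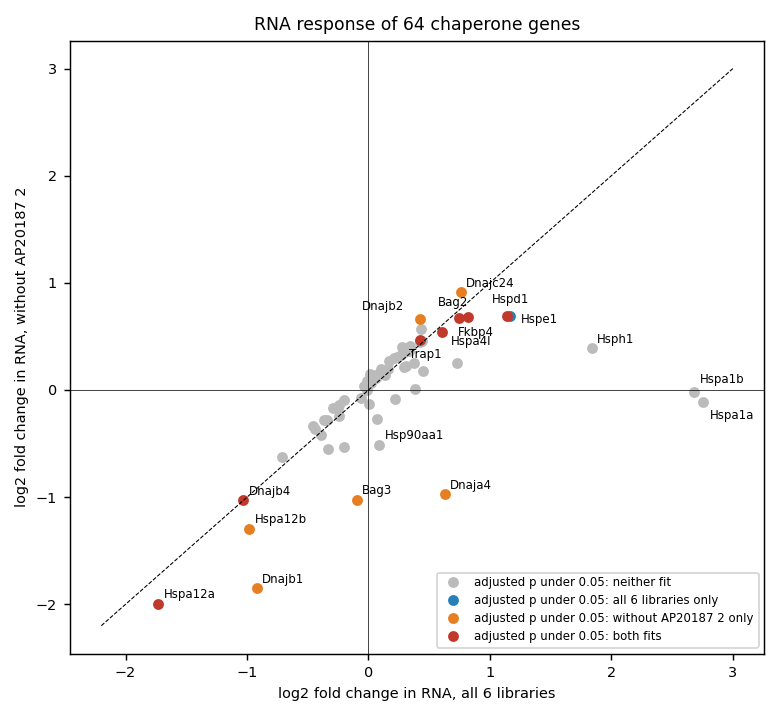
Log2 fold change in RNA with all 6 libraries (x) against the same without RNA AP20187 2 (y) for the 64 members, coloured by which fit called them, with a dashed line of equality. Hspa1a, Hspa1b and Hsph1 lie far right of the line near 0 on the y axis, and Dnajb1, Bag3 and Dnaja4 lie below the line at -1.85, -1.03 and -0.98.

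The remaining classes moved little in RNA. Of the 9 TRiC genes, which build the ring that folds actin and tubulin, 0 passed in edgeR (1 at an unadjusted p under 0.05), although 8 had a positive log2 fold change and the median was 0.23. Cct5, at 373, 473 and 391 CPM with vehicle and 484, 483 and 600 CPM with AP20187, and Cct2, at 446, 469 and 494 CPM against 451, 461 and 520 CPM, are the most abundant of them in CPM. Among the 15 Dnajc genes 0 passed in edgeR (6 at an unadjusted p under 0.05), and their log2 fold changes ran from -0.44 for Dnajc21, a factor of ribosome biogenesis, to 0.76 for Dnajc24. Dnajc5, the cysteine string protein of vesicles, read 365, 290.4 and 348 CPM with vehicle and 289, 244 and 258 CPM with AP20187 (log2 fold change -0.34), and its groups do not overlap. Dnajc7, which binds both Hsp70 and Hsp90, overlapped between groups (0.10).

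Several abundant members of other classes did not pass in RNA. Hspa4, an abundant Hsp110-type exchange factor, read 836, 709 and 878 CPM in RNA with vehicle and 664, 548 and 763 CPM with AP20187 (log2 fold change -0.30). Dnaja1 and Dnaja2, the abundant J proteins of class A, had log2 fold changes of -0.20 and -0.21, which were -0.53 and -0.09 without RNA AP20187 2. Hspb1, the small heat shock protein that guards actin filaments, read 1038, 919 and 1234 CPM with vehicle and 642, 1089 and 797 CPM with AP20187 (-0.34), so that AP20187 1 and 3 lie below all vehicle libraries. Its log2 fold change was -0.55 ± 0.20 without RNA AP20187 2 (edgeR adjusted p = 0.0670). Hspb8, the partner of Bag3, read 235, 230.2 and 225 CPM against 248.9, 324 and 283 CPM (0.31). Bag6, which escorts tail-anchored proteins, read 404, 333 and 351 CPM with vehicle and 315, 313 and 292 CPM with AP20187 (-0.24), all below vehicle. None of these passed in the fit of all 6 RNA libraries or without RNA AP20187 2.

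The footprint comparison asks whether ribosome occupancy of the chaperone mRNAs differed. Of the 61 members that passed the filter on low counts (Cct6b, Hspa12a and Hspa1l did not), 0 rose and 1 fell in edgeR, where 2.54% of all genes were called (0.937% higher and 1.6% lower). At an unadjusted p under 0.05 there were 5 higher and 2 lower. DESeq2 called 0 rises and 2 falls (Dnajb1 and Dnajb4), with 7.5% of all genes called. Groups did not overlap for 10 members above and 1 below, against 11.8% and 11.5% of all genes.

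Dnajb1 (chr8:83608193-83612653, plus strand) was the member that fell in footprints. It read 2872, 3226 and 4661 CPM with vehicle and 860, 1349 and 812 CPM with AP20187, so that every AP20187 library, library 2 included, lies far below every vehicle library. The log2 fold change was -1.84 ± 0.32 (edgeR adjusted p = 0.0207), and -2.11 ± 0.34 without footprint AP20187 2 (0.0181), where 2.66% of all genes were called (0.9% higher and 1.76% lower). Leaving out footprint vehicle 1, vehicle 2, vehicle 3 or AP20187 1 ended the call, with edgeR adjusted p-values of 0.0580, 0.0758, 0.0600 and 0.0973. In these fits 0, 0, 0.0425 and 0.0141% of all genes were called, against 2.54% with no library left out. With the replicate number as a block, 1 member rose and 2 fell while 10.8% of all genes were called (5.45% higher and 5.31% lower). Hsph1 rose by 0.84 ± 0.23 (edgeR adjusted p = 0.0217), and Dnajb1 (-1.85 ± 0.25, 1.31e-04) and Dnajb4 (-1.10 ± 0.20, 0.00140) fell. Without the block, Dnajb4 read 375, 279 and 696 CPM with vehicle and 157, 165 and 295 CPM with AP20187 in footprints, with a log2 fold change of -1.14 ± 0.38 (adjusted p = 0.149).

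Footprint library AP20187 2 was the highest of the 6 for 9 of the 20 listed Hsf1 targets, beside 17.3% of all genes, with Hspa1a and Hspa1b the farthest apart. It was not the highest for Dnaja4, Dnajb1, Hsp90aa1, Hspd1 or Hspe1. Hspa1b footprints read 56.7, 35.3 and 56.8 CPM with vehicle and 52.1, 551 and 24.8 CPM with AP20187, and Hspa1a footprints 18.5, 14.7 and 7.03 CPM against 15.0, 192 and 6.66 CPM. Library 2 stands alone in both. Over the mean of libraries 1 and 3 (with 0.5 CPM added), it was 20.0 times higher for Hspa1a in RNA and 17.0 times in footprints, and 17.6 and 14.2 times for Hspa1b. The same ratio was 6.25 in RNA and 2.08 in footprints for Hsph1, 7.10 and 2.86 for Dnaja4, 3.76 and 2.31 for Bag3, and 3.76 and 1.61 for Dnajb1. For Hspd1 and Hspe1, whose RNA was 2.11 and 2.18 times higher, footprints were at 1.01 and 0.896 times. Hsp90ab1 was similar in both, at 1.94 and 1.85 times.

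Footprint library AP20187 2 was the highest of the 6 by at least 1.5 times for 4 of 61 members (6.56%: Hsp90ab1, Hspa1a, Hspa1b and Hsph1), against 1.63% of all genes. Footprint libraries scatter more than RNA libraries: for 10 members (16.4%) another library was the highest, or any library the lowest, by that margin, against 30% of all genes. The RNA and footprint libraries numbered 2 carry the same number in the labels, which do not say that the number marks a shared pellet. Same-numbered AP20187 RNA and footprint libraries deviated together (correlation over genes 0.451, 0.523 and 0.369 for numbers 1, 2 and 3). Unlike-numbered AP20187 pairs gave -0.423 to -0.0585. With vehicle, same-numbered pairs gave 0.0533 to 0.33 and unlike-numbered pairs -0.237 to 0.159. Whether same-numbered libraries share a pellet was not tested. Hsph1 footprints read 98.1, 126 and 139 CPM with vehicle and 158, 355 and 183 CPM with AP20187, so that all AP20187 libraries exceed vehicle, as in RNA. Its log2 fold change in footprints, 0.92 ± 0.33 (edgeR adjusted p = 0.181), was 0.49 ± 0.29 without library 2.

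**Figure D4:**
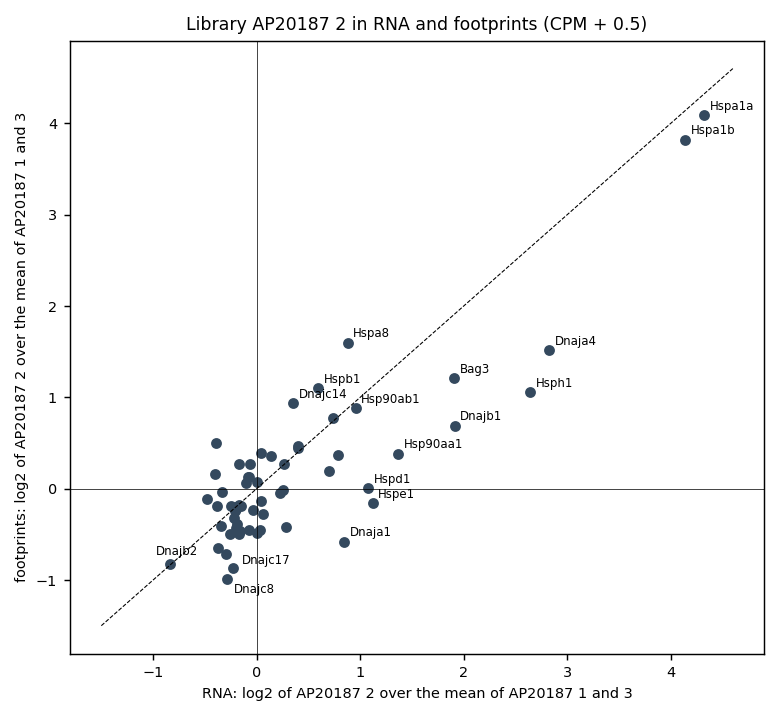
Library AP20187 2 over the mean of AP20187 1 and 3, as log2 of CPM + 0.5, in RNA (x) and in footprints (y) for the 61 members tested in both assays, with a dashed line of equality. Hspa1a and Hspa1b lie at the top right near the line, and Hsph1, Dnaja4, Bag3, Dnajb1, Hspd1 and Hspe1 lie below it.

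In footprints, Hspd1 read 98.1, 94.0 and 97.2 CPM with vehicle and 108, 143 and 175 CPM with AP20187, and Hspe1 30.5, 54.4 and 69.0 CPM against 47.0, 83.4 and 139 CPM. Hspd1 groups do not overlap and Hspe1 groups do. Neither passed, at log2 fold changes of 0.55 ± 0.26 and 0.78 ± 0.42 (edgeR adjusted p = 0.328 and 0.400). Hspa4l (0.57) and Bag2 (0.51) also had all AP20187 libraries above vehicle without passing. Fkbp4 read 252, 213 and 173 CPM with vehicle and 217, 372 and 320 CPM with AP20187 (0.50), and Trap1 was level at -0.03.

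A change in translational efficiency, that is in footprints relative to RNA between AP20187 and vehicle, was found for 0 of 64 members in edgeR (2 at an unadjusted p under 0.05, both higher), with limma voom (0 at that p) and with DESeq2 (3 at that p). Over all 7315 genes tested edgeR also called 0%, while DESeq2 called 0.137% of all genes and 0 members. The smallest p-values among members belong to Dnajb6, a J protein that holds back aggregation (1.37 ± 0.56), Dnajc13, an endosomal J protein (0.72 ± 0.29), Dnajc14, a J protein of the endoplasmic reticulum membrane (1.17 ± 0.61), Trap1 (-0.51 ± 0.27) and Hspd1 (-0.63 ± 0.40), with edgeR adjusted p-values of 0.989 or more. Dnajb6 footprints were few, at 2.18, 2.17 and 5.73 CPM with vehicle and 4.62, 6.16 and 11.996 CPM with AP20187. Dnajb1 had a change of -0.97 ± 0.62, in which the RNA of library AP20187 2 enters. The chaperonin pair was negative (-0.63 and -0.42), and neither gene passed.

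Among vehicle libraries, the footprint to RNA ratio of each gene was compared with that of the average gene. It describes relative occupancy and counting region together, since mRNA reads cover whole transcripts and the footprint counting region is not given in the sources used here. Of the 64 members, 19 had more footprints for their RNA and 15 had fewer, a called share of 53.1% beside 49.7% over all genes (24.0% more and 25.7% fewer). Leaving out RNA vehicle 1 lowered the number with more footprints to 10, and leaving out RNA vehicle 3 lowered it to 11. The share called over all genes also dropped, to 36.3 and 37.5%. In the AP20187 libraries the same test gave 10 with more and 11 with fewer, where 38.4% of all genes were called (17.9% more and 20.5% fewer).

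Of the 9 TRiC genes, 6 (Cct3, Cct5, Cct6a, Cct7, Cct8 and Tcp1) had more footprints for their RNA, and Cct2, Cct4 and Cct6b did not pass, beside 24% of all genes with more. Leaving out RNA vehicle 1 kept Cct6a and Cct8, and leaving out RNA vehicle 3 kept those and Tcp1. The share called over all genes fell in these fits as well, from 49.7% to 36.3 and 37.5%. In the AP20187 libraries Cct5, Cct6a, Cct8 and Tcp1 passed, beside 17.9% of all genes with more. Cct8, at 267, 329 and 299 CPM in RNA and 491, 503 and 600 CPM in footprints, had a log2 ratio of 0.91 ± 0.19 relative to other genes (edgeR adjusted p = 0.00327), and the median of the class was 0.62 against -0.02 over all genes. Hspb11, known as a subunit of the intraflagellar transport complex despite its name, had the highest ratio (1.98 ± 0.36, 0.00176). Dnajc24 (1.76), Dnajb1 (1.49 ± 0.26, 0.00154), Dnajc9, a histone chaperone of the J family (1.34), and Hspa2 (1.27) followed. Dnaja3 (1.14) and Trap1 (1.09) of the mitochondria, Dnajb12 (0.86) and Bag2 (0.84) also passed.

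Fewer footprints for their RNA were found for several of the most abundant chaperones. Hspa8, at 1538, 1587 and 2020 CPM in RNA, had 49.0, 41.3 and 4.95 CPM in footprints (log2 ratio -5.73 ± 0.70, edgeR adjusted p = 2.13e-04). Hsp90aa1, at 939, 930.1 and 1090.0 CPM in RNA, had 24.5, 21.7 and 46.6 CPM in footprints (-4.88 ± 0.33, 9.68e-06). Dnajb6 (-4.45), Hspa1a (-3.02), Dnaja1 (-2.54), Dnajc14 (-1.82), Dnajc13 (-1.48), Hspd1 (-1.45), Hspa1b (-1.42) and Dnajc5 (-1.08) followed.

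Several of these genes share most of their sequence with transcripts of other symbols, such as Hspd1-ps3 for Hspd1. In the GENCODE M21 transcripts, 95.4% of the 28-base windows of the Hspa8 coding sequence also occur under another gene symbol, and the same was so for 98.6% in Dnajb6, 95.6% in Dnaja1, 92.8% in Hsp90aa1 and 81.7% in Hspd1. Over the 9 members with more than 50% of windows shared, the median log2 ratio was -2.54 and 7 had fewer footprints for their RNA. Over the 38 members with under 1% shared, the median was 0.21, with 4 that had fewer and 11 that had more. Over all genes the medians were -1.07 for 639 genes above 50% and 0.04 for 5217 genes under 1%. The exceptions among the 9 are Hspb1 (90.8% shared, log2 ratio 0.02) and Hspe1 (87.1%, -0.04). How reads with several matches were counted in each assay is not given, so the part of shared sequence in these ratios was not tested, and footprint levels of the 9 are uncertain.

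**Figure D5:**
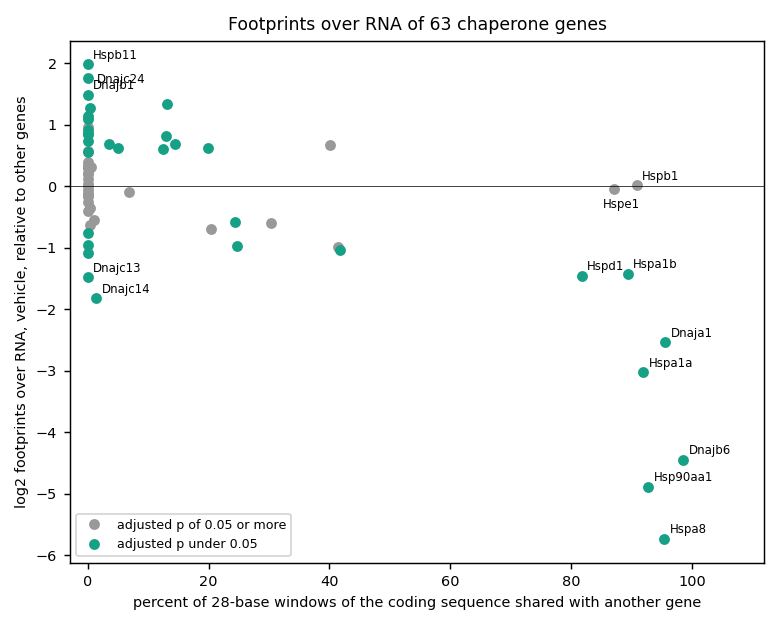
Percent of 28-base coding windows that also occur under another gene symbol (x) against the log2 footprint to RNA ratio in vehicle libraries relative to other genes (y) for 63 members, green where the adjusted p is under 0.05. Hspa8, Hsp90aa1, Dnajb6, Hspa1a and Dnaja1 sit at the bottom right, and Hspb1 and Hspe1 lie near 0 at the right.

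Levels between genes were compared per kilobase, of the transcript for RNA and of the coding sequence for footprints. With vehicle, the highest members in RNA were Hspb1 (1178 ± 176 CPM per kb, SD, n = 3), Hsp90ab1 (857 ± 58.0), Hspa8 (716 ± 111) and Dnajb1 (450 ± 107). Hspb1 and Hsp90ab1 do not overlap between libraries, and neither do Hspa8 and Dnajb1. In footprints Dnajb1 came first, at 3516 ± 929 CPM per kb, higher than 99.5% of listed genes with a length, and Hspb1 second, at 1632 ± 487. With AP20187 the footprint level of Dnajb1 was 987 ± 291 CPM per kb. Its rank in RNA with vehicle was the 98.0th percentile. The lowest members were Hspa1l, Cct6b and Hspa12a, at 0.710, 0.893 and 1.58 CPM per kb in RNA.

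Other genes of protein folding, 55 of them in the table and nearly all cytosolic or mitochondrial (Hspa5 and Serpinh1 act in the endoplasmic reticulum), showed 5 rises and 1 fall in RNA (10.9% called, beside 26.2% of all genes), with 0 passing in edgeR for footprints (4 at an unadjusted p under 0.05) and 0 for translational efficiency (1 at that p). Without library AP20187 2 there were 6 rises and 5 falls in RNA (20%, beside 30.6% of all genes) and 1 fall in footprints. Fkbp5, the Hsp90 immunophilin induced by steroid hormones, rose from 53.9, 60.6 and 44.7 CPM to 193, 148 and 126 CPM (log2 fold change 1.55 ± 0.19, edgeR adjusted p = 0.00531). Clpp, the mitochondrial protease (0.83 ± 0.17), and Hspa5, the Hsp70 of the endoplasmic reticulum (0.73 ± 0.16), rose as well, as did Tbcc (0.96) and Ubqln1 (0.55), while Tomm34 fell (-0.45). Cryab and Serpinh1, which are heat-inducible chaperones outside the member rule, resembled Bag3: Cryab RNA read 29.3, 25.9 and 31.4 CPM with vehicle and 11.6, 53.4 and 16.03 CPM with AP20187, and Serpinh1 273, 269.6 and 312 CPM against 139, 335 and 178 CPM. Both were picked for their values. Neither passed in RNA with all 6 libraries, and both fell without RNA AP20187 2 (log2 fold changes -1.05 and -0.83, edgeR adjusted p = 0.00901 and 0.00935). Serpinh1 also fell in footprints without library AP20187 2 (-1.39, edgeR adjusted p = 0.0287).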

How the data were processed

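The authors deposited raw read counts per gene symbol for 12 libraries in a single table of 7318 genes; how these genes were chosen is not stated. The tools named per the submitters' processing notes are HTSeq, STAR, Bowtie2, cutadapt and bcl2fastq 1.8.3, with build mm10, with roles and settings not given in the sources used here. Reads shared by near-identical genes may be split or lost by such counting. From the deposited counts, TMM-scaled CPM were computed per assay, so changes are relative to other genes. For genes kept by filterByExpr, edgeR 4.0.16 (R 4.3.3) gave 2-sided quasi-likelihood tests with Benjamini-Hochberg adjustment over all genes and a threshold of 0.05. The RNA and footprint responses were fitted on 6 libraries each, the change in translational efficiency as an interaction over 12, and the footprint to RNA ratio on the 6 vehicle libraries. SE was derived from the F statistic. Alternatives were DESeq2 1.42.0, limma voom (limma 3.58.1), other scalings and filters, a replicate block, a fit over 12 libraries and leaving out each library. The fits were tested on simulated counts.

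Hsp90a was read as followed by a letter and a digit, since no symbol has a digit right after it. Same-numbered vehicle and AP20187 footprint libraries deviated together (correlation over genes 0.154, 0.257 and 0.337 for numbers 1, 2 and 3). Unlike-numbered footprint pairs gave -0.252 to 0.0772. The blocked footprint values are therefore given where they change a call. Same-numbered vehicle and AP20187 RNA libraries gave 0.197, -0.053 and -0.059, within the range of unlike-numbered RNA pairs (-0.241 to 0.219). The labels do not state what the number marks. The members, their role classes, the lists and the rule for named genes were chosen with earlier results of these data known. That rule names all members past the threshold in a test (up to 10 a direction), the 5 smallest p-values where none passes, and the 2 most abundant members of each class. Genes named for library AP20187 2, the margin of 1.5 times, the 2-unit element and the check of shared windows were picked with the values in view. Promoters and their coordinates are from RefSeq (GRCm38.p6), and gene coordinates, lengths and coding sequences from GENCODE M21 (GRCm38). The planned search for protein motifs was not run, and proteins are not used here.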

Additional observations from a re-analysis of the deposited data

How the results depend on the processing

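The RNA counts of 6 rises and 2 falls among the members became 10 and 5 with DESeq2, 4 and 1 with the replicate block, and 1 and 0 in a fit that shared its spread over all 12 libraries. The share called over all genes moved too, from 26.2% to 34, 16.4 and 9.13%. In edgeR without a single RNA library, rises ranged from 0 to 9 and falls from 1 to 6, with 7.33 to 30.6% of all genes called. The footprint counts of 0 rises and 1 fall became 0 and 2 with DESeq2, and 1 and 2 both with the replicate block and in the fit over 12 libraries. Of all genes 7.5, 10.8 and 10.4% were called there, against 2.54%. Without a single footprint library, rises stayed at 0 and falls ranged from 0 to 1, with 0 to 2.66% of all genes called. Translational efficiency gave 0 members under every setting run, with at most 0.137% of all genes called. These settings include a fit, added after seeing the data, without both libraries AP20187 2. The vehicle ratio counts of 19 more and 15 fewer ranged from 10 to 20 and from 12 to 17 without a single library. The share called over all genes ranged from 36.3 to 53.9% there, against 49.7%. In the AP20187 libraries (also added after seeing the data) the counts were 10 more and 11 fewer, with 38.4% of all genes called. Upper quartile scaling gave 23 and 12, with 50.4% of all genes called and the median of all genes at 0.16 against -0.02. The replicate block changed the footprint calls of Hsph1 and Dnajb4 and ended the RNA calls of Hspa4l, Trap1 and Hspa12a and the ratio call of Bag2. It changed no other call of a named member. By the correlations given above, same-numbered vehicle and AP20187 RNA libraries lay within the range of unlike-numbered pairs. With the block 16.4% of all genes were called in RNA. The causes of these differences were not tested.

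Footprint depth limits low members: 3 counts correspond to 0.283 to 1.63 CPM there, against 0.0121 to 0.0322 CPM in RNA.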
